A study of Mus musculus with 50 samples.

Results

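Methylation was examined at the CpGs of 10 core genes of the circadian clock: the activators Arntl (also called Bmal1) and Clock, the repressors Per1, Per2, Per3, Cry1 and Cry2, the nuclear receptors Nr1d1 and Nr1d2, and the output gene Dbp. A CpG was taken where the deposited table gave the Ensembl identifier of one of these genes as its promoter or as its gene body. This gave 133 of 205304 CpGs, which lay in 17 of 51038 clusters of neighbouring CpGs, and all 10 genes had at least 1 CpG. Expression of these genes was not used here.

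The samples were soleus muscles, a slow muscle of the lower leg, from 12-week-old male and female C57BL/6 mice. All mice were Dnmt3a flox/flox, with loxP sites around exon 19 of the gene of this de novo DNA methyltransferase; WT mice carried no Cre, and mD3AKO mice carried Cre driven by the muscle creatine kinase promoter (mCK-Cre). This promoter is active in differentiated muscle, so satellite cells and non-muscle cells of the tissue presumably keep Dnmt3a, which was not tested here. Muscles were taken at 10, 30 or 60 min after 30 min on a treadmill at 16 m/min and 5% incline, or at rest after a sham treadmill, and counts were available for 5, 5, 5 and 6 WT and 5, 5, 7 and 6 mD3AKO muscles at rest, 10, 30 and 60 min. Each sample carried its own number, and no sample number occurred in more than 1 group. Soleus is a mixed tissue, so fewer methylated cells and less methylation per cell cannot be told apart. The table held 12819404 to 41285655 calls per sample, where a call is 1 read at 1 CpG, and a level is the share of methylated calls in percent.

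In the clock, ARNTL and CLOCK pair and bind E-boxes (CACGTG), from which they activate the Per and Cry genes, Nr1d1, Nr1d2 and Dbp. PER and CRY proteins return to the nucleus and block ARNTL and CLOCK, and the NR1D receptors repress Arntl, which closes both loops within about a day. Skeletal muscle holds its own clock, which follows feeding and activity and drives rhythmic metabolic genes. The E-box carries a CpG at its centre, so a measured CpG can lie within the binding site itself.

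The sequences of the clusters with a mean level of 5% or more are shown first. These were the only clock gene clusters whose mean level could fall by more than a few points. They are from GRCm38 (mm10), + strand, with the measured CpGs in capitals.
Arntl far upstream, chr7:113204907-113204948: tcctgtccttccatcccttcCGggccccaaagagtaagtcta
Arntl first intronic site, chr7:113227247-113227288: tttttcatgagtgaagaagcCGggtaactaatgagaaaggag
Arntl second intronic site, chr7:113295323-113295364: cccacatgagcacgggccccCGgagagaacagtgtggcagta
Arntl exon, chr7:113306053-113306121: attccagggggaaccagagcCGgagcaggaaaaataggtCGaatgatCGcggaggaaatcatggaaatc
Per2 intron, chr1:91451257-91451359: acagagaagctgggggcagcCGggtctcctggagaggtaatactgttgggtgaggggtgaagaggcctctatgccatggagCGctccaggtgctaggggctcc
The 3 single-CpG clusters and 1 CpG each of the Arntl exon and the Per2 intron lie in CCGG, the site that MspI cuts to make the library. The 2 clusters below lie just upstream of the start of Clock and of Per1. They stand for the unmethylated start sites, and Clock is shown because it gave the lowest permutation p among them. The Per1 window opens with an E-box (CACGTG) whose CpG was not measured.
Clock promoter, chr5:76305107-76305249: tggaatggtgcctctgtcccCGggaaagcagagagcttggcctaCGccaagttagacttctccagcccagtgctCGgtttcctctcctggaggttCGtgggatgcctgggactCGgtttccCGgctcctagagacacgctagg
Per1 promoter, chr11:69095066-69095178: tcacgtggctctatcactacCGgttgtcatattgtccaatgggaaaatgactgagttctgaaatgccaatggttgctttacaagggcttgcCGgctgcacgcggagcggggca
The next 2 hold the 2 measured CpGs that lie within an E-box, an Nr1d1 intron and a Dbp intron.
Nr1d1 intron, chr11:98774074-98774340: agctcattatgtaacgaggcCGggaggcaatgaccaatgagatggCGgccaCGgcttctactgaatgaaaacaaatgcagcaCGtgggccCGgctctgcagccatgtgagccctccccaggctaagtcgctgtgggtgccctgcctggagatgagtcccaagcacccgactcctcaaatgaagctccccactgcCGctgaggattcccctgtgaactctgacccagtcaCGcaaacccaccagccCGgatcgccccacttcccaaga
Dbp E-box intron, chr7:45707807-45707855: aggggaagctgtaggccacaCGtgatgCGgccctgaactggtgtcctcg
E-boxes held 1.50% of the clock gene CpGs against 0.431% of all CpGs, which is 2 of 133 against 885 of 205304, and the count is too small for a comparison. A CRE core (TGACG, either strand) covered 2 clock gene CpGs, or 1.50% against 1.43% of all. No measured clock gene CpG lay in the variant CACGTT or in TGACGTCA, which covered 0.455% and 0.0468% of all CpGs. Of 31396 RefSeq promoters (GRCm38.p6, 300 bases each), 7.14% held CACGTG. Among 13 RefSeq promoters of 9 of the genes (Per2 had no entry), 1 of 2 Per1 promoters and the Cry1 promoter held it. No CpG within either of these E-boxes was measured.

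The clock genes split into unmethylated start regions and a few methylated distal sites. All 111 CpGs within 1000 bp of a gene's start had a mean level between 0% and 3.98% over the 44 samples, with a median of 0.475%. Of the 22 CpGs farther away, 14 were under 5% and the other 8 reached 24.8% to 96.4%. CpG islands held 119 of the 133 CpGs (89.5% against 69.1% of all CpGs), and all 119 were under 5%. At 4 CpGs, 1 in Arntl, 2 in Cry1 and 1 in Nr1d2, no methylated call was found among 1844 to 3791 calls each. Counted by clusters, 12 of 17 (70.6%) had a mean level under 5%, against 24.3% of all clusters. The comparable class is the clusters with both promoter and island CpGs, of which 9 of 9 clock gene clusters and 90.5% of all 9037 were under 5%, with median levels of 0.634% and 0.696%.

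**Figure D1:**
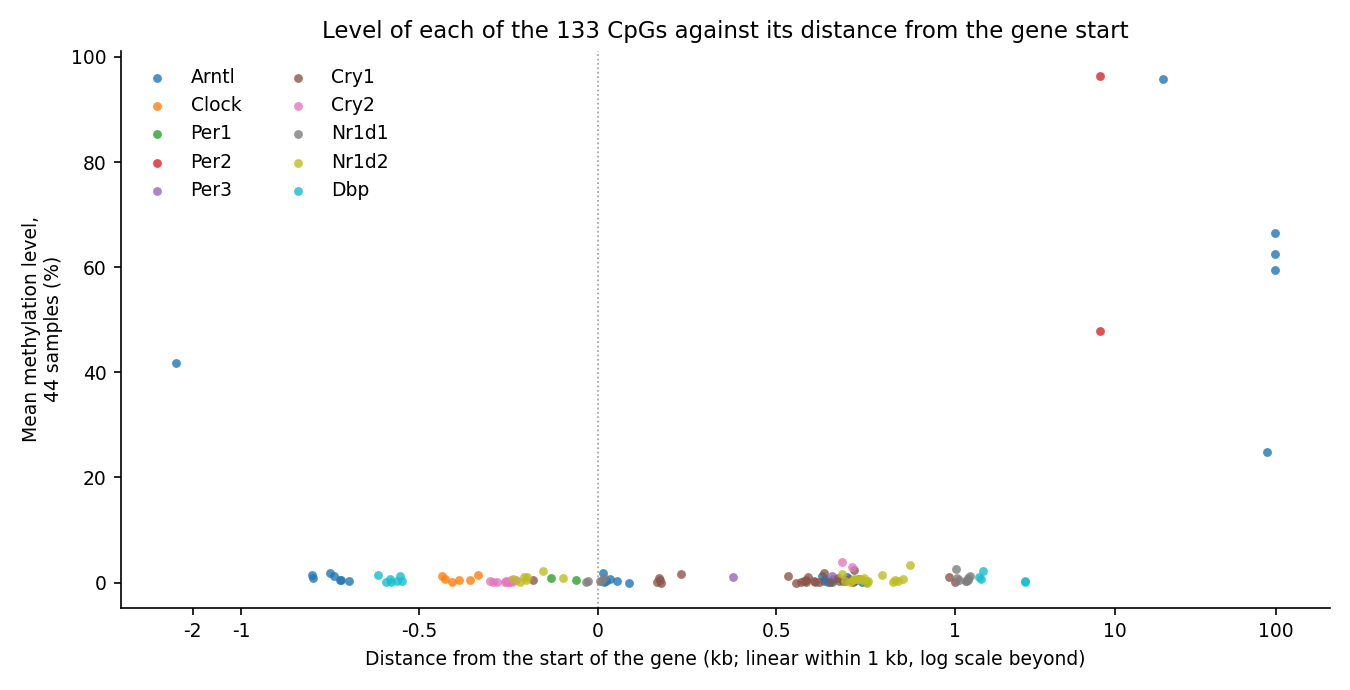
Mean methylation level over 44 samples (%, vertical axis) of each of the 133 CpGs against its distance from the start of its gene (kb, linear within 1 kb and log scale beyond), coloured by gene. The CpGs within about 1 kb of the start lie at 0% to 3.98%, and the methylated CpGs, at 24.8% to 96.4%, belong to Arntl and Per2 and lie farther away.

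The order of the methylated clusters was the Arntl first intronic site (95.8% ± 7.88, SD, n = 44), the Per2 intron (75.5% ± 12.7), the Arntl exon (62.7% ± 16.0), the Arntl far upstream site (41.8% ± 12.0) and the Arntl second intronic site (24.8% ± 18.7). Each stood above the next in most but not all muscles, in 41, 36, 38 and 36 of 44. The difference between the Per2 intron and the Arntl exon, 12.7 points, was smaller than its SD of 18.5, and that between the far upstream and second intronic sites, 17.0 points, was smaller than its SD of 22.1. Neighbours among the 12 low clusters, which ran from 0.237% at the Dbp E-box intron to 1.36% at the Dbp upstream intronic cluster, differed by 0.0104 to 0.250 points, always less than the SD of the difference.

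**Figure D2:**
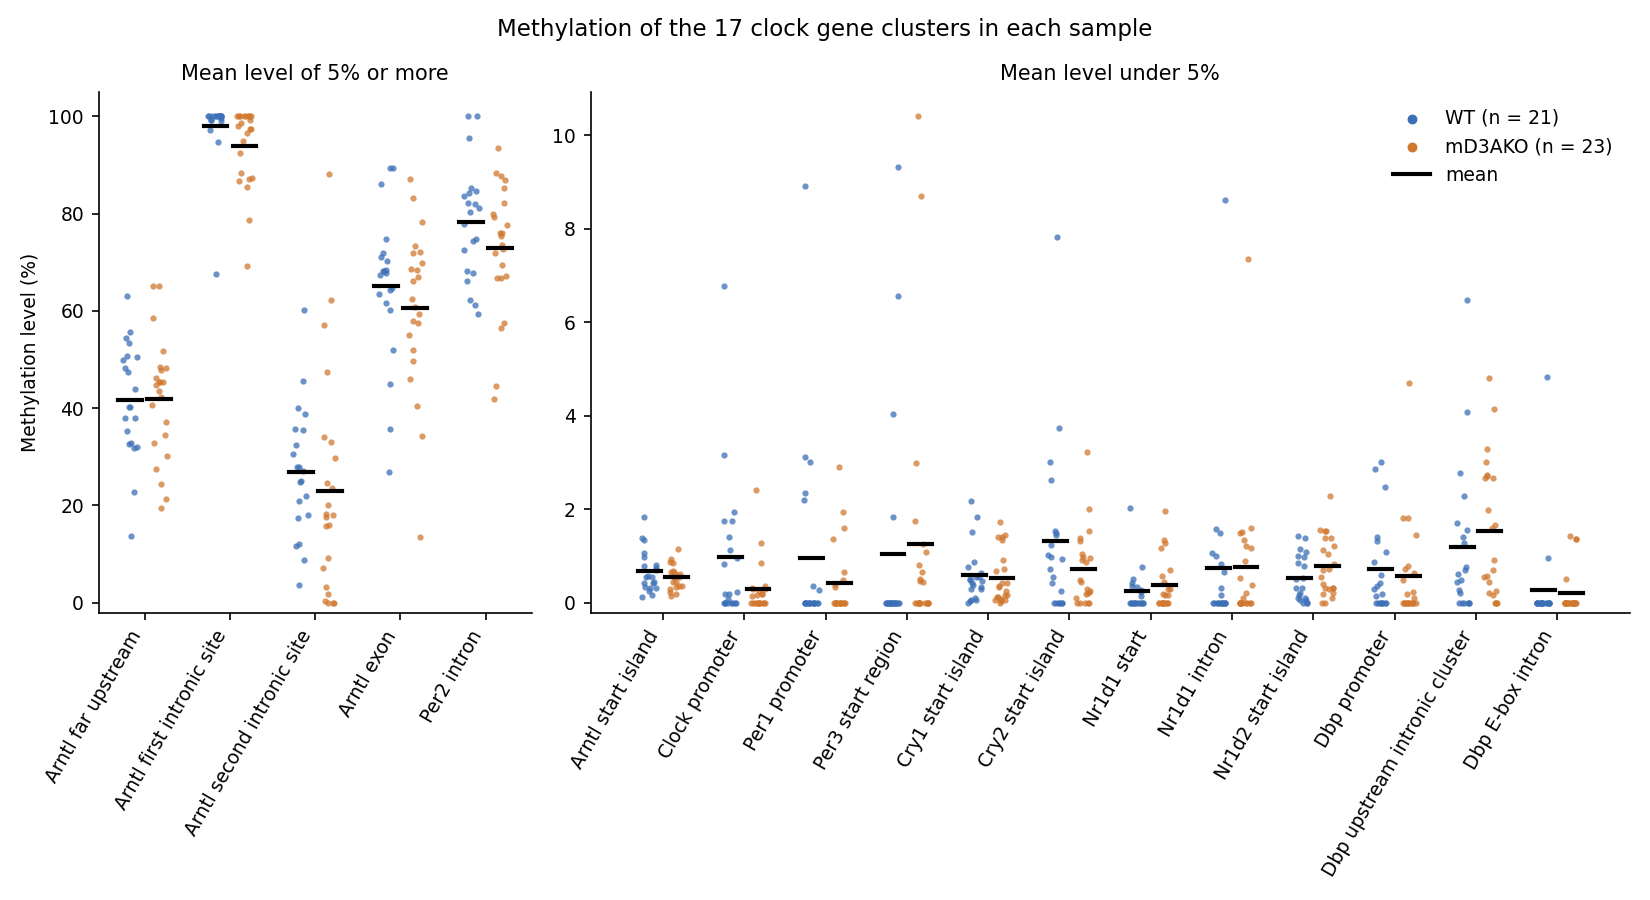
Methylation level (%, vertical axis; the scale differs between the panels) of each sample in the 17 clusters, for 21 WT and 23 mD3AKO muscles, with the mean of each genotype as a line. The left panel holds the 5 clusters with a mean of 5% or more, where the genotypes overlap at every cluster, and the right panel the 12 clusters with means of 0.237% to 1.36%, where most samples sit near 0% and single samples reach up to 10.4%.

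No clock gene cluster passed the quasi-likelihood test for genotype, and 1 passed the likelihood ratio test. The edgeR quasi-likelihood test, with Benjamini-Hochberg adjustment over all 51038 clusters, called 557 clusters, or 1.09%, of which 554 were lower in mD3AKO, and 0 of the 17 clock gene clusters. At an unadjusted p under 0.05 stood 1 of 17 clock gene clusters, beside 9.57% of all clusters. edgeR's likelihood ratio test called 1 clock gene cluster, the Arntl first intronic site, and 1414 or 2.77% of all clusters, with 1 of 17 and 12.8% of all at an unadjusted p under 0.05. Of the tests given here, this one came nearest to the number of clusters that the study reported for genotype. The quasi-binomial model called 0 of 17 and 2.54% of all, with 0 of 17 and 12.2% at an unadjusted p under 0.05, and limma called 0 of 17 and 1.75% of all, with 2 of 17 and 11.4%. Mean levels were lower in mD3AKO at 11 of 17 clock gene clusters (64.7%) and at 62.4% of all clusters. Among clusters at 5% or more, they were lower at 4 of 5 with a median difference of -4.12 points, against 64.0% and -1.27 points over all 38650 such clusters. The quartiles over all such clusters were -4.37 and 1.13 points, and the 5 clock gene clusters all lie in Arntl or Per2. The same test found 0 of 9 clock gene promoters (0.789% of 9761 called, 0 of 9 at an unadjusted p under 0.05), 0 of 7 gene bodies (1.42% of 12391 called, 0 of 7) and 0 of 133 single CpGs (0.289% of 205304 called, 4 of 133 at an unadjusted p under 0.05 beside 6.40% of all). For these features the likelihood ratio test and the quasi-binomial model also called 0.

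**Figure D3:**
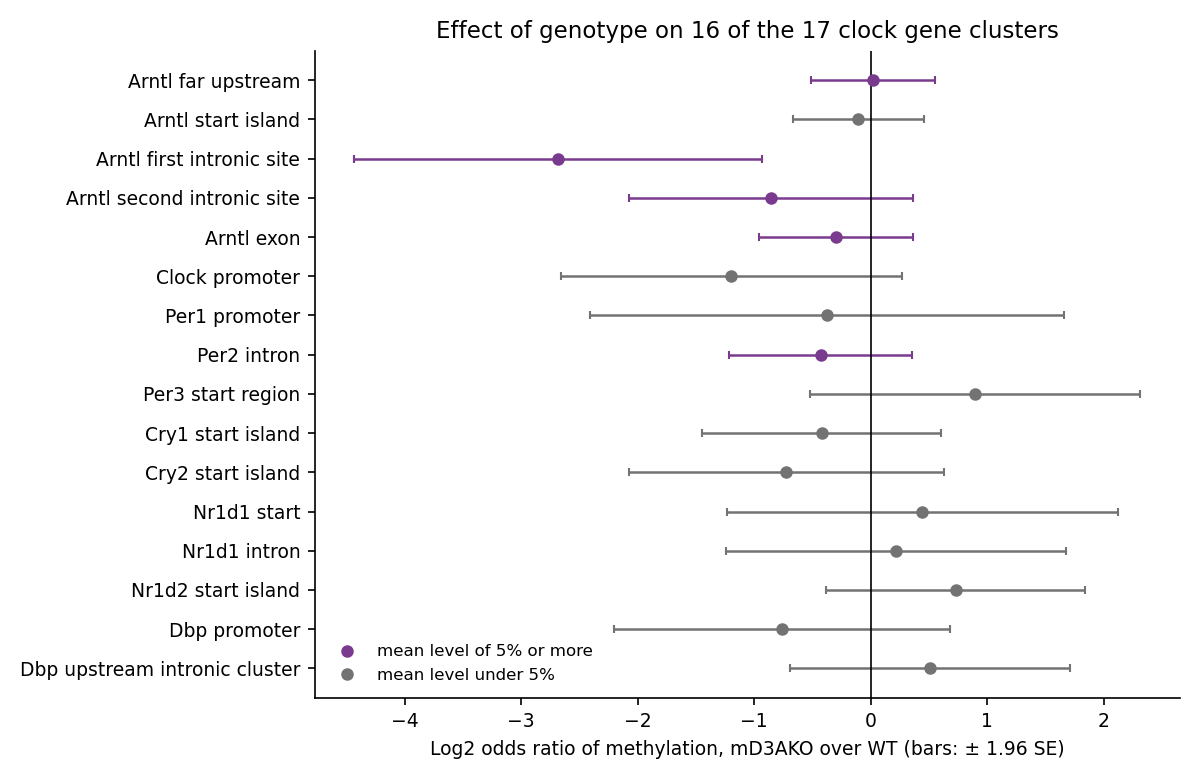
Log2 odds ratio of methylation, mD3AKO over WT (horizontal axis), for 16 of the 17 clock gene clusters, with bars of 1.96 SE on each side. The interval of the Arntl first intronic site, -4.43 to -0.93, lies below 0 before adjustment for the number of clusters, and the other 15 intervals include 0. The Dbp E-box intron, where 38 of 44 samples had no methylated call, is left out. Its quasi-likelihood statistic was near 0, which gives no usable SE.

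Arntl, the partner of CLOCK, had the most measured sites, 32 CpGs in 5 clusters. Its start island, 26 CpGs from 801 bp before to 751 bp after the gene's start (chr7:113206664-113208216), was near 0% in every muscle. Levels ran from 0.112% over a median of 0.554% to 1.83% in WT and from 0.139% over a median of 0.556% to 1.14% in mD3AKO, on 1007 to 7726 calls per sample. The means were 0.668% ± 0.444 (SD, n = 21) and 0.547% ± 0.249 (n = 23), and the log2 odds ratio was -0.11 ± 0.29 (SE, edgeR adjusted p = 0.986). The groups overlapped almost completely.

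The Arntl first intronic site (chr7:113227267, 19802 bp into the gene) was close to fully methylated. In WT muscle the lowest, median and highest levels were 67.5%, 100% and 100%, and in mD3AKO muscle they were 69.2%, 97.5% and 100%, on 55 to 343 calls per sample. All calls were methylated in 14 of 21 WT and 8 of 23 mD3AKO muscles, and levels under 95% were found in 2 WT and 9 mD3AKO muscles. The means were 97.9% ± 7.08 and 93.8% ± 8.21, a difference of -4.12 points (permutation test p = 0.0844), and the log2 odds ratio was -2.68 ± 0.89 (edgeR quasi-likelihood p = 0.00479, adjusted p = 0.18). The likelihood ratio test of edgeR gave an adjusted p of 0.0468, the other alternatives 0.151 to 0.802, and fits without 1 muscle 0.0769 to 0.316. This was the lowest genotype p among the 17 clusters, and the quasi-likelihood call was not made.

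Within single times, the resting difference at this site was -1.95 points, and the differences after exercise were -0.339 (10 min), -6.96 (30 min) and -6.34 points (60 min). At 30 min the 5 WT muscles ran from 99.1% to 100% and the 7 mD3AKO muscles from 78.7% to 100%, which overlap (exact permutation p = 0.0960; edgeR adjusted p = 0.987). At 60 min all 6 WT muscles were at 100%, and the 6 mD3AKO muscles read 86.8%, 87.2%, 92.5%, 97.5%, 98.1% and 100%, so that 5 of 6 lay below every WT muscle (exact permutation p = 0.0152; edgeR adjusted p = 0.773). At rest, WT muscles read 67.5%, 97.2% and 100% in 3 muscles, and mD3AKO muscles 69.2%, 87.3%, 98.6% and 100% in 2, which overlap (exact permutation p = 0.921). Since 60 min and rest share sample numbers 1 to 25 and 10 and 30 min share 26 to 50, the genotype effect was also fitted within each set. It was -3.37 in the first and -1.95 in the second on the log2 scale (edgeR adjusted p = 0.668 and 0.802).

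The Arntl second intronic site (chr7:113295343) varied most of all. WT muscles ran from 3.64% over a median of 27.0% to 60.2%, and mD3AKO muscles from 0% over 18.0% to 88.2%, on 28 to 322 calls. Of 23 mD3AKO muscles, 3 had no methylated call, against 0 of 21 WT. The means were 26.9% ± 13.3 and 22.9% ± 22.8, with a log2 odds ratio of -0.85 ± 0.62 (edgeR adjusted p = 0.772), within the spread between muscles.

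The Arntl exon cluster (chr7:113306073-113306100) holds 3 CpGs in a coding exon, 98608 to 98635 bp from the gene's start and 653 to 680 bp after the start of a shorter annotated transcript. WT muscles ran from 27.0% over 67.8% to 89.5% and mD3AKO muscles from 13.5% over 62.5% to 87.0%. The means were 65.1% ± 15.5 and 60.6% ± 16.5 (log2 odds ratio -0.30 ± 0.34, edgeR adjusted p = 0.904). Its CpGs, 8 to 27 bp apart, moved together across the 44 muscles, with Pearson's r of 0.628 to 0.805 between them. They share reads, so these values describe the same molecules in part.

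The Arntl far upstream site (chr7:113204927, 2538 bp before the start) was the one methylated CpG that the table counts as promoter. Its range was 13.6% over 40.3% to 63.0% in WT and 19.4% over 44.7% to 65.1% in mD3AKO. The means were 41.6% ± 11.9 and 42.0% ± 12.4, with a log2 odds ratio of 0.02 ± 0.27 and an approximate 95% interval of -0.51 to 0.55 (edgeR adjusted p = 1.0). Together with the start island it gave the Arntl promoter, 27 CpGs, a level of 2.32% ± 1.23 in WT and 2.33% ± 0.841 in mD3AKO.

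Clock encodes the partner of ARNTL in the activator. Its 6 measured CpGs, 335 to 436 bp before the start (chr5:76305127-76305229), also lie in the antisense gene Gm7467. WT muscles ran from 0% over 0.192% to 6.78% and mD3AKO muscles from 0% over 0.140% to 2.40%, on 308 to 1378 calls, and 8 WT and 11 mD3AKO muscles had no methylated call. The means were 0.970% ± 1.60 and 0.291% ± 0.554, a difference of -0.678 points, and the log2 odds ratio was -1.20 ± 0.75 (edgeR adjusted p = 0.682). The permutation test over muscles gave p = 0.0410, the lowest of 17 such tests, before any adjustment for their number. It did not hold when muscles were left out one at a time, an alternative chosen after seeing the data. In 21 of 44 such tests, 7 without a WT and 14 without an mD3AKO muscle, p was 0.05 or more, and the values ran from 0.00926 without an mD3AKO muscle at 30 min with 2.40% to 0.0931 without the WT resting muscle at 6.78%, where the difference was -0.388 points. With the mean over CpGs unweighted by calls, p was 0.0564.

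Among the repressors, Per2 alone was measured at methylated sites. Its 2 CpGs lie in an intron, 7986 and 8047 bp from the start (chr1:91451277-91451338), and the start region of Per2 had no measured CpG. The cluster ran from 59.4% over 80.4% to 100% in WT and from 41.8% over 75.4% to 93.5% in mD3AKO, on 18 to 378 calls. The means were 78.3% ± 11.8 and 72.9% ± 13.2, with a log2 odds ratio of -0.43 ± 0.40 (edgeR adjusted p = 0.862, permutation p = 0.166), and 15 of 23 mD3AKO muscles lay below the WT mean. The 2 CpGs, 61 bp apart, had unlike levels. The CpG at 91451277 was at 50.6% ± 26.3 in WT and 45.2% ± 23.6 in mD3AKO, and that at 91451338 at 98.6% ± 2.29 and 94.3% ± 10.1. The second was the higher in 42 of 44 muscles, by 48.6 points on average, and the levels were weakly related across muscles (r = 0.164).

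Per1 and Per3 were covered by 2 CpGs each. The Per1 promoter CpGs (chr11:69095086-69095157, 60 and 131 bp before the GENCODE start) had no methylated call in 14 of 21 WT and 15 of 23 mD3AKO muscles, and the highest levels were 8.92% and 2.89%. The means were 0.963% ± 2.11 and 0.420% ± 0.781 (log2 odds ratio -0.38 ± 1.04, edgeR adjusted p = 0.986). Both RefSeq promoters of Per1 start downstream of these CpGs. The Per3 start region (chr4:151044009-151044287, in a transcribed part of Per3 that the table also assigns to the gene body of Camta1) was at 1.04% ± 2.52 in WT and 1.26% ± 2.73 in mD3AKO, with medians of 0% and single muscles at up to 9.32% and 10.4% (log2 odds ratio 0.90 ± 0.72, adjusted p = 0.812). On 40 to 429 and 72 to 302 calls, a count of 0 allows a share of up to 0.699% to 7.50% at Per1 and 0.993% to 4.17% at Per3, depending on the muscle. These limits and all intervals on calls cover counting error only.

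Cry1 had 27 CpGs from 183 bp before to 1001 bp after its start (chr10:85184064-85185247), and Cry2 had 12 from 302 bp before to 712 bp after (chr2:92433332-92434345). Cry1 was at 0.585% ± 0.586 in WT (0% over 0.468% to 2.18%) and 0.533% ± 0.559 in mD3AKO (0% over 0.334% to 1.73%), on 1193 to 5481 calls, with a log2 odds ratio of -0.42 ± 0.52 (edgeR adjusted p = 0.921). Cry2 was at 1.32% ± 1.82 (0% over 0.942% to 7.83%) and 0.712% ± 0.798 (0% over 0.441% to 3.23%), with -0.72 ± 0.69 (adjusted p = 0.867). The highest single start-region CpG of the clock genes was in Cry2, at position 92433359, with 7.12% ± 11.6 in WT and 1.12% ± 2.27 in mD3AKO (log2 odds ratio -2.08 ± 0.84, edgeR adjusted p = 0.569). Its neighbour at 92433332, 27 bp away in the same intron, lay the other way, at 1.52% ± 3.43 and 4.24% ± 7.66 (1.66 ± 0.90, adjusted p = 0.865).

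Nr1d1 and Nr1d2 encode the heme-binding repressors REV-ERB alpha and beta, which act on Arntl. The 5 CpGs at the Nr1d1 start (chr11:98775316-98775367, within 34 bp of the start) were at 0.238% ± 0.461 in WT and 0.372% ± 0.554 in mD3AKO, with no methylated call in 12 and 11 muscles (log2 odds ratio 0.44 ± 0.86, edgeR adjusted p = 0.966). The 25 CpGs of the Nr1d2 start island (chr14:18238252-18239366) ran from 0% over 0.315% to 1.43% in WT and from 0% over 0.688% to 2.27% in mD3AKO. The means were 0.523% ± 0.490 and 0.780% ± 0.622, the log2 odds ratio was 0.73 ± 0.57 (adjusted p = 0.799), and 10 of 23 mD3AKO muscles lay below the WT mean.

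Both E-box CpGs were close to unmethylated in both genotypes. The Nr1d1 intronic E-box (its CpG at position 98774156) had 8 methylated among 3315 calls (0.241%) over all muscles, and no methylated call in 18 of 21 WT and 19 of 23 mD3AKO muscles. Its cluster of 8 CpGs, 1014 to 1239 bp into the gene, was at 0.747% ± 1.88 and 0.772% ± 1.56 (log2 odds ratio 0.22 ± 0.75, edgeR adjusted p = 0.994). The Dbp intronic E-box (CpG at 45707827, 2739 bp into the gene and 62 bp before the start of a shorter annotated transcript) had 12 among 4747 (0.253%), with none in 19 and 21 muscles. Its cluster of 2 CpGs was at 0.275% ± 1.06 and 0.202% ± 0.480 (edgeR adjusted p = 1.0). Because nearly all muscles were at 0, a lower level in mD3AKO was not detectable at these sites.

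Dbp, a transcription factor that carries the rhythm to output genes, had 2 further low clusters. The 7 promoter CpGs, 550 to 617 bp before the start (chr7:45704471-45704538), overlap the end of the neighbouring gene Car11 and were at 0.714% ± 0.974 and 0.561% ± 1.08 (log2 odds ratio -0.76 ± 0.74, edgeR adjusted p = 0.868). The Dbp upstream intronic cluster (chr7:45706515-45706585) was at 1.19% ± 1.62 and 1.52% ± 1.47 (0.51 ± 0.61, adjusted p = 0.914). Its last CpG, at 45706585, read 1.12% ± 2.39 in WT and 3.08% ± 3.15 in mD3AKO, one of the 4 CpGs with an unadjusted p under 0.05 (1.89 ± 0.74, edgeR adjusted p = 0.538). The others were the Arntl first intronic site, the Cry2 CpG at 92433359 and the Nr1d1 CpG at 98775362, which had no methylated call in any WT muscle and 0.453% ± 1.25 in mD3AKO (1.89 ± 0.70, adjusted p = 0.481).

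Time after exercise moved no clock gene cluster past the threshold. The edgeR quasi-likelihood test of time called 0 of 17 (0% of all clusters called), with 0 at an unadjusted p under 0.05 beside 2.86% of all clusters, and the test of the genotype by time interaction called 0 of 17 (0% of all called), with 0 beside 2.74%. By the likelihood ratio test, the quasi-binomial model and limma, the counts of clock gene clusters were also 0 for both, with 0 at an unadjusted p under 0.05. Over single CpGs, 0 of 133 were called for time and for the interaction (0% of 205304), and 5 and 3 had an unadjusted p under 0.05, beside 3.41% and 2.89% of all. The lowest p for time were those of the Dbp E-box intron, the Clock promoter and the Arntl exon, in that order, each with an edgeR adjusted p of 1.0. The lowest for the interaction were those of the Cry1 start island, the Nr1d1 intron and the Nr1d1 start, also with adjusted p of 1.0.

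**Figure D4:**
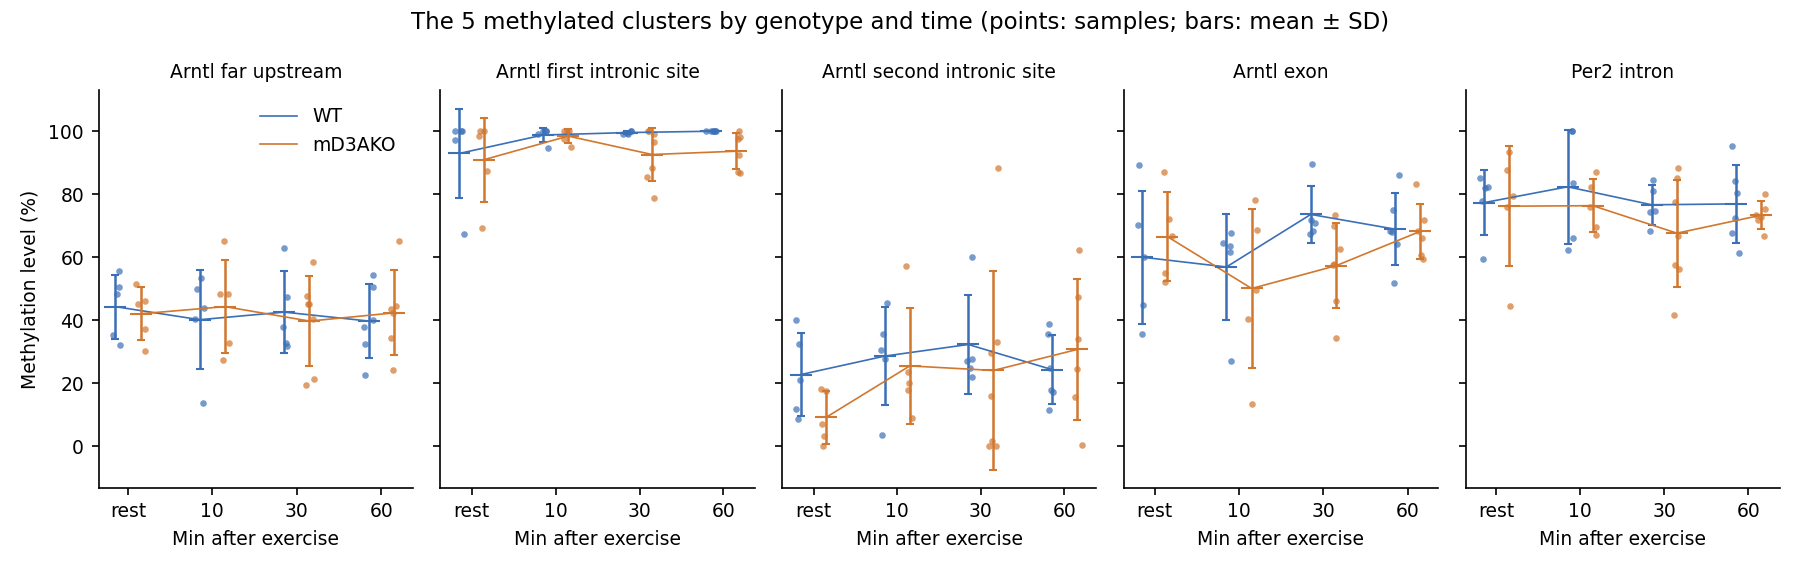
Methylation level (%, vertical axis) of the 5 methylated clock gene clusters by time (rest and 10, 30 and 60 min after exercise) in WT and mD3AKO muscle, with points for samples (5 to 7 per group) and bars for mean ± SD. Means at the Arntl exon range from 50.1% to 73.6% and at the Arntl far upstream site from 39.8% to 44.4%, and the samples of the groups overlap. At 60 min the 6 WT muscles all sit at 100% at the Arntl first intronic site, as does 1 of the 6 mD3AKO muscles.

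Each time was also set against rest within a genotype, where 10 and 30 min again differ from rest in their set of sample numbers. In none of the 6 comparisons was a clock gene cluster or any other cluster called by the edgeR quasi-likelihood test (0% of 51038 in each). At an unadjusted p under 0.05 stood 1 cluster in WT at 10 min (4.29% of all) and 1 in mD3AKO at 60 min (3.00%), and 0 in WT at 30 and 60 min (3.17% and 3.67%) and in mD3AKO at 10 and 30 min (2.89% and 2.80%). These comparisons share their resting muscles within a genotype. The WT cluster was the Clock promoter, where the 5 resting muscles read 0%, 0.962%, 1.74%, 1.95% and 6.78%. At 10 min they read 0% in 3 muscles, 0.0754% and 1.40%. The groups overlap (log2 odds ratio -3.38 ± 1.44, edgeR p = 0.0237, adjusted p = 1.0; exact permutation p = 0.0873).

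The mD3AKO cluster was the Cry1 start island, where the 5 resting muscles ranged from 0.0592% to 0.166% and the 6 muscles at 60 min from 0.419% to 1.73%. The means were 0.106% ± 0.0553 and 0.980% ± 0.495 (log2 odds ratio 3.10 ± 1.03, edgeR p = 0.00447, adjusted p = 1.0, exact permutation p = 0.00433). How many of all clusters have ranges that lie apart in these 2 groups was not counted. In this comparison 3.00% of all clusters had an unadjusted edgeR p under 0.05, and 0 were called. In WT the same comparison ran from 0.787% ± 0.837 to 0.460% ± 0.249 (exact permutation p = 0.483). The interaction over all times was not called (adjusted p = 1.0). Against WT, the Cry1 means of mD3AKO lay lower at rest, where WT muscles ran from 0.0483% to 2.18% and overlapped with mD3AKO (-0.681 points, exact permutation p = 0.0476; edgeR adjusted p = 1.0), and higher at 60 min, where the groups also overlapped (0.520 points, exact permutation p = 0.0346; edgeR adjusted p = 0.997).

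Between genotypes at one time, the edgeR quasi-likelihood test called 0 of 17 clock gene clusters at rest (0.00588% of all clusters called), at 10 min (0.0137%), at 30 min (0.0176%) and at 60 min (0.00784%). At an unadjusted p under 0.05 stood 1, 0, 0 and 2 of 17, beside 4.69%, 5.12%, 5.14% and 5.23% of all. They were the Cry1 start island at rest and, at 60 min, the Arntl first intronic site and the Nr1d1 start, where the means were 0.0683% ± 0.167 in WT and 0.764% ± 0.871 in mD3AKO (log2 odds ratio 2.75 ± 1.25, edgeR p = 0.0339, adjusted p = 0.924; exact permutation p = 0.182). The mean of the Arntl exon at 30 min was 73.6% ± 9.06 in WT (67.4% to 89.5%) and 57.3% ± 13.5 in mD3AKO (34.3% to 73.4%), a difference of -16.3 points between groups that overlap (exact permutation p = 0.0391; edgeR adjusted p = 1.0). Of 170 exact permutation tests of a cluster, within a time or against rest, 5 gave an unadjusted p under 0.05. All 5 are given in the text, and their share of the 170 is below 0.05. Neither these tests nor the overlap of groups was counted over all clusters, so no share stands beside them. The test of sex called 0 of 17 (0% of all called), with 0 at an unadjusted p under 0.05 beside 4.35% of all.

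The spread between muscles of one group was larger than the calls alone give. The pooled SD within groups was 1.57 times (Nr1d1 start) to 5.31 times (Arntl exon) the SD expected from counting calls. Among the methylated clusters, SDs over all samples were 12.0 points at the Arntl far upstream site, 12.7 at the Per2 intron, 16.0 at the Arntl exon and 18.7 at the Arntl second intronic site, and the median over the 30512 clusters at 10 to 90% was 13.7. Levels of the 5 methylated clusters were loosely related across the 44 muscles, with pairwise r between -0.161 and 0.590 and a median of 0.125. For the 12 low clusters the 66 values ran from -0.314 to 0.528 with a median of -0.0229.

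The clusters of named genes outside the 10 whose levels were most like those of the Arntl first intronic site over the 44 muscles were single CpGs or pairs in Mia3 (r = 0.677), Ly6d (0.653), Emp2 (0.648), Parm1 (0.632) and Smyd3 (0.629), as the highest among all clusters searched. The resemblance rested in part on the 2 muscles with the lowest Arntl levels, 1 WT and 1 mD3AKO at rest. Without them r was 0.365, 0.553, 0.348, 0.444 and -0.0509.

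Of 24 further genes of the clock and its modifiers, 20 had CpGs in the table, in 56 clusters. They include the partners Npas2 and Arntl2, the receptors Rora and Rorb, the kinases Csnk1d and Csnk1e and the output factor Hlf. The edgeR quasi-likelihood test of genotype called 0 lower and 0 higher in mD3AKO, beside 1.09% of all clusters called, with 8 of 56 at an unadjusted p under 0.05 beside 9.57% of all. That of time called 0, beside 0% of all, with 2 of 56 at an unadjusted p under 0.05 beside 2.86%. Mean levels were lower in mD3AKO at 39 of 56, with a median difference of -0.377 points, against 62.4% and -0.455 points over all clusters. The lowest p were at Hlf, a relative of Dbp (chr11:90347786-90347860, 2 CpGs, 27.3% ± 8.44 in WT and 19.3% ± 7.17 in mD3AKO, lower than the WT mean in 18 of 23; log2 odds ratio -0.62 ± 0.22, adjusted p = 0.229), and at Rora, an activator of Arntl (chr9:68679644, 75.3% ± 15.3 and 58.4% ± 21.0, lower in 17 of 23; -1.19 ± 0.44, adjusted p = 0.265).

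Promoter CpGs were available for 2 of 8 markers of skeletal muscle and 2 of 7 of other cells of the tissue. Mean levels over the 44 samples were 14.6% at Acta1 and 1.29% at Des, with 1 CpG each, and 13.8% at Pax7, a gene of satellite cells, and 1.21% at Pdgfra, a gene of fibroblast-like cells. The study reports reduced methylation at the Pax7 promoter in mD3AKO muscle, and the mean here pools both genotypes. Methylation of so few CpGs does not set the share of each cell type, and its part in the values above was not tested.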

How the data were processed

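Reduced representation bisulfite sequencing (RRBS) was performed by the authors on soleus DNA. Reads were trimmed with Trim Galore 0.4.0 and cutadapt 1.9.1 and aligned to mm10 with Bismark 0.18.1, per the labels and the study's methods. The authors deposited counts of methylated and unmethylated reads per CpG for 44 of 50 samples, with at least 8 calls per CpG in every sample and CpGs at most 100 bp apart grouped into clusters. The other 6 samples were not used here, and 1 of them carried labels for both genotypes. A promoter in the table reaches from 3000 bp before to 1000 bp after a start.

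Counts were summed per cluster, promoter or gene body and tested with the edgeR 4.0.16 quasi-likelihood test (R 4.3.3) over 8 groups, with Benjamini-Hochberg adjustment over all features and a threshold of 0.05. Log2 odds ratios are given with SE, and intervals are 1.96 SE on each side. Levels of single clusters were compared by two-sided permutation tests over samples, with 100000 resamples for 21 against 23. These tests were exact within a time and against rest. Alternatives were edgeR's likelihood ratio test (for single CpGs on every 10th CpG and all clock gene CpGs), a quasi-binomial model (pseudocount 0.5), limma 3.58.1 on log2 ratios of counts plus 1, a minimum of 20 calls, cluster gaps of 50 and 200 bp, a filter on levels, sex as a covariate, sample numbers 1 to 25 or 26 to 50 alone, and leaving out each sample (on every 5th cluster and all clock gene clusters). A count of 0 was read as allowing up to 3 counts. Python 3.11.15, numpy 2.4.6, pandas 2.3.3, scipy 1.17.1 and matplotlib 3.10.9 were used, and scripts were tested on simulated data.

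Median coverage was 48 to 163 calls per CpG and sample. RRBS reads carried no molecular identifiers, so counting intervals and floors cover counting error only. The labels do not say more on the origin of replicates than their numbers, and p-values measure the spread between these samples. No 2 samples of a group were alike within sampling noise (chi-square of 6.00 to 13.8 per CpG over 101 pairs). The named clusters were, for each gene, the promoter cluster with the most calls and the cluster with the lowest genotype p, over all genes the 3 lowest p for time and for the interaction, the 3 largest and smallest spreads at 10 to 90%, the 5 clusters most like the one with the lowest genotype p, and the 2 lowest p of the further clock genes. The other clusters and single CpGs described were chosen after their values were seen. The genes and lists were chosen with earlier results of these data known.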

Additional observations from a re-analysis of the deposited data

Results flagged for a closer look

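Single muscles stood apart from the rest of their group at 40 of 136 combinations of a cluster and a group, by the gap to the nearest muscle against the range of the group (Dixon's critical value). Chance alone flags about 1 in 20, or 6.8, where the levels of a group follow a normal distribution. Many groups hold a single muscle above 0 among muscles at 0, for which this expectation does not apply. More than once flagged were 8 muscles. The values below are levels, and their causes were not tested.

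At the methylated Arntl sites, low muscles were 67.5% (WT at rest) and 94.8% (WT at 10 min) at the first intronic site and 27.0% (WT at 10 min) at the exon. High muscles were 60.2% (WT at 30 min) and 88.2% (mD3AKO at 30 min) at the second intronic site and 89.5% (WT at 30 min) at the exon. At the Arntl start island 1 WT muscle at 10 min was high at 1.83%. At the Per2 intron 1 WT muscle at rest was low at 59.4%, the same muscle as at the Arntl first intronic site.

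At the Clock promoter, high muscles were 6.78% (WT at rest), 1.40% (WT at 10 min), 3.16% (WT at 30 min) and 2.40% (mD3AKO at 30 min). At the Per1 promoter they were 0.360% (WT at rest), 3.01% (WT at 10 min), 8.92% (WT at 30 min), 1.36% (mD3AKO at rest) and 1.95% (mD3AKO at 60 min). The muscle at 8.92% was also the high one at the Clock promoter and at the Arntl second intronic site. At the Per3 start region they were 4.03% (WT at rest), 1.83% (WT at 10 min), 8.70% (mD3AKO at rest) and 10.4% (mD3AKO at 60 min), and at the Cry1 start island 1.51% (WT at 30 min) and 1.34% (mD3AKO at 30 min).

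At the Nr1d1 start, high muscles were 2.02% (WT at rest), 0.410% (WT at 60 min) and 0.293% (mD3AKO at 10 min). At the Nr1d1 intron they were 1.57% (WT at 10 min), 8.62% (WT at 30 min), 0.816% (WT at 60 min), 7.35% (mD3AKO at 10 min) and 1.49% (mD3AKO at 30 min). At the Nr1d2 start island 1 mD3AKO muscle at 10 min was low at 0.191%. At Dbp, high muscles were 2.48% at the promoter (WT at 60 min), 2.77% and 6.47% at the upstream intronic cluster (WT at 10 and 60 min), and 0.962% (WT at 10 min), 4.82% (WT at 60 min), 1.35% (mD3AKO at 10 min), 1.43% (mD3AKO at 30 min) and 1.37% (mD3AKO at 60 min) at the E-box intron. A single WT muscle at 10 min gave the low 94.8% and 27.0% at Arntl. It also gave the high 3.01% at Per1, 1.83% at Per3, 1.57% at the Nr1d1 intron and 0.962% at the Dbp E-box intron. Not every muscle flagged more than once is traced here.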

How the results depend on the processing

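Counts of called clock gene features stayed at 0 under the alternatives run, except that the edgeR likelihood ratio test called 1 cluster for genotype, the Arntl first intronic site, beside 1414 of all 51038 clusters against 557 in the quasi-likelihood test. In the permutation tests of 21 WT against 23 mD3AKO muscles, the 1 cluster with p under 0.05, the Clock promoter, became 0 with the mean over CpGs unweighted. A minimum of 20 calls left 13 of the 17 clusters, and the filter on levels left 7.

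The sign of the log2 odds ratio of genotype changed for 10 clusters, none of them called, and the cause was not tested. With at least 20 calls it was 0.58 at the Arntl start island, 0.41 at the Per1 promoter and -0.032 at the Nr1d2 start island. With limma it was -0.091 at the Nr1d1 intron and -0.52 at the Dbp E-box intron. In samples 1 to 25 it was -0.0023 at the Arntl far upstream site, 0.16 at the Arntl exon and -0.42 at the Dbp E-box intron. In samples 26 to 50 it was 0.51 at the Arntl start island, 0.00081 at the Clock promoter, -0.37 at the Per3 start region, -0.42 at the Nr1d1 start and -0.37 at the Nr1d1 intron. With single samples left out it ran from -0.092 to 0.095 at the Arntl far upstream site, -0.21 to 0.036 at the Arntl start island, -0.99 to 0.28 at the Per1 promoter, -0.14 to 0.88 at the Nr1d1 intron and -0.50 to 0.76 at the Dbp E-box intron. No paired analysis was possible because the groups compared share no sample numbers.

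Depth limits the clusters with few methylated calls in most muscles, such as the Dbp E-box intron. Of all 12388 clusters under 5%, 123 were called lower in mD3AKO. The edgeR quasi-likelihood test of genotype called 1.01% of the clusters under 5% and 1.12% of those at 5% or more. The 12 low clock gene clusters had means of 0.237% to 1.36%, and whether their level bears on the calls was not tested.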
